A study of Mus musculus with 13 samples.

Results

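The 38 genes described here are immediate early genes: 7 subunits of the transcription factor AP-1 (Fos, Fosb, Fosl1, Fosl2, Jun, Junb and Jund), 4 other bZIP factors (Atf3, Maff, Cebpb and Cebpd), 7 zinc finger factors of the Egr and Klf families, 2 orphan nuclear receptors of the Nr4a family, 4 other nuclear regulators, 7 feedback inhibitors and survival genes, 5 growth arrest genes, and the cytoskeleton and matrix genes Rhob and Ccn1. They were taken by symbol from a table of raw counts for 21868 gene symbols, and all 38 were found and passed the filter on low counts, which 14300 genes passed. The table held 13 RNA-seq libraries of mouse jejunal epithelium. Per the labels, the tissue was digested with enzymes in a mechanical dissociator, and flow cytometry kept EpCAM-positive cells that lacked CD45, CD11b, CD3 and B220 before their polyadenylated RNA was sequenced. BSF_C (3 libraries) is labelled as the breakfast skipping pattern together with control, with no further account. BSF (breakfast skipping, 2 libraries) was fed from ZT16 to ZT24, where ZT is zeitgeber time, the hour counted from lights on. LSF (lunch skipping, 3 libraries) ate between ZT12 and ZT16 and again between ZT20 and ZT24, and DSF (dinner skipping, 2 libraries) from ZT12 to ZT20, each for 2 weeks. The control group con had 3 libraries. The feeding times of BSF_C and con, the hour of sampling, the time between excision and lysis, and the mice's strain, sex and age are not given in the sources used here.

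Immediate early genes are transcribed within minutes of a growth factor, cytokine, stress or depolarising signal, from factors that are already present in the cell, among them serum response factor with its ternary complex partners and the cyclic AMP response element binding protein. Their messenger RNAs and proteins are mostly short-lived, so their levels follow recent signals. Many encode transcription factors that carry the signal to later genes, and others switch the signal off, as the dual specificity phosphatases do for mitogen-activated protein (MAP) kinases and Socs3 does for cytokine receptors. In intestine they are known to respond to growth factors and to feeding, and in many tissues to enzymatic dissociation.

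The promoters of 4 members with large changes against con are shown first, because immediate early genes are known for binding sites close to their start. Each runs from 250 bases before to 50 bases after the RefSeq start on GRCm38.p6, 5′ to 3′ on the strand of the gene, and capitals mark each match to 1 of 3 motifs on either strand: TGACG, the core of the cyclic AMP response element, GCGGGGGCG, a site of the Egr factors, and TATAAA. The TATAAA marked in Cebpb begins at base 22 counted from the RefSeq start, after it rather than before. The Egr match in Socs3 begins 181 bases before the start. The windows are chr2:167688665-167688964 (plus strand) for Cebpb, chr7:19309996-19310295 (minus strand) for Fosb, chr1:191183284-191183583 (minus strand) for Atf3 and chr11:117969317-117969616 (minus strand) for Socs3.
Cebpb: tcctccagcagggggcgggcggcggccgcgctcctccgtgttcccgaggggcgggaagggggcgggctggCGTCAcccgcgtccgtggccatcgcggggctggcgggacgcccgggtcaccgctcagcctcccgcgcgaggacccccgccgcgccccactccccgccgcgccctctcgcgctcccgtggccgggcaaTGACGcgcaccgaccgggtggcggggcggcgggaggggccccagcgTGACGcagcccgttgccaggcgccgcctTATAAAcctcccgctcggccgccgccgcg
Fosb: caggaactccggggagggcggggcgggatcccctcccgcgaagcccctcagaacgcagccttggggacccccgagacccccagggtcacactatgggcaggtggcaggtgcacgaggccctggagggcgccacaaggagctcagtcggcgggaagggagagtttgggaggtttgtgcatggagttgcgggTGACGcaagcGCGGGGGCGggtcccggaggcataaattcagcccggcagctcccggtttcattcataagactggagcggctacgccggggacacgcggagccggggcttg
Atf3: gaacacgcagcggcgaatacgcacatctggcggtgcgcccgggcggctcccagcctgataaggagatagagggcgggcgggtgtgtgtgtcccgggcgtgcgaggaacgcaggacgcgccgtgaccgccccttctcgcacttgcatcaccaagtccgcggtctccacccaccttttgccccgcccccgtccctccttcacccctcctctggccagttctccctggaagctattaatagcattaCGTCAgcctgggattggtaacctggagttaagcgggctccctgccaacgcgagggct
Socs3: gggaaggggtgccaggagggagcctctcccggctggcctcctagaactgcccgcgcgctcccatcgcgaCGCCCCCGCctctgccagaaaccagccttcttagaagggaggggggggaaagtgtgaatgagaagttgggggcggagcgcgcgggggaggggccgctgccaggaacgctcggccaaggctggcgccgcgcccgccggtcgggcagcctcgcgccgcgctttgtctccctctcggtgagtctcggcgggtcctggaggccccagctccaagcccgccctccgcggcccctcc

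A RefSeq promoter was found for 31 of the 38 members. A match to TGACG on either strand stood in 17 of these 31 genes (54.8%), against 23% of 27025 genes with a promoter. The whole element TGACGTCA, which holds TGACG, stood in 3 (9.68%), against 2.03% of genes. The Egr site, searched as GCGTGGGCG or GCGGGGGCG, stood in 8 (25.8%), against 3.93%. The CArG box of serum response factor stood in 3 (9.68%), against 1.81%, and TATAAA in 9 (29%), against 15.7%. The AP-1 site, TGACTCA or TGAGTCA, stood in 1 (3.23%), against 5.95%. A gene with several promoters was counted once, and these are matches of letters in a window, not binding.

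The libraries held 7127769 to 8589351 counts in the 4 feeding groups and 4851239 to 5202146 in con. The libraries labelled con stood apart from the other 10, at 88.9 to 93.9 on a first principal component that took 77% of the variance, against -32.9 to -22.1. Skin keratinocyte markers summed to 3.77 to 6.24 CPM (library-size normalised counts, scaled by trimmed means) in the 10 libraries of the feeding groups and to 576 to 674 CPM in con, with 0 of the 13 listed genes at 0 in con. Heart muscle markers summed to 152 to 476 CPM in the feeding groups and to 5.82 to 8.88 CPM in con, where 6 of 9 were at 0. Leukocyte markers, whose cells the gate leaves out, summed to 182 to 306 CPM in the feeding groups and 54.1 to 57.4 CPM in con. They too went both ways: of 14 tested, 9 were called higher and 4 lower in BSF against con. Gzmb had 50.1 to 90.9 CPM in the feeding groups and 0 to 0.619 CPM in con. Csf1r had 15.9 to 20.4 and 26.4 to 34.3 CPM, and Itgam 5.05 to 8.59 and 11.7 to 12.5 CPM, in the same order. Epithelial markers summed to 8170 to 9151 CPM in the feeding groups and 8299.5 to 9332 CPM in con. These near-equal sums hid changes in both directions. Of 11 epithelial markers, 7 were called higher and 4 lower in BSF against con, against 38.3% and 31.9% of all genes. Fabp2 had 126 to 201 CPM in the feeding groups and 16.4 to 19.8 CPM in con. Cdh1 had 710 to 854 CPM in the feeding groups and 1895 to 2152 CPM in con. The part of these differences in the results against con was not tested. In sorted bulk cells, fewer cells of a type and less RNA per cell cannot be told apart.

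BSF against LSF, BSF against DSF and BSF_C against LSF put every called member in 1 direction. In BSF, 33 of the 38 members (86.8%) fell relative to LSF and 0 rose, against 29.3% of all genes called, 13.4% higher and 15.9% lower. Relative to DSF, 27 members (71.1%) fell in BSF and 0 rose, against 12% of all genes called, 5.77% higher and 6.26% lower. In BSF_C, 29 (76.3%) fell relative to LSF and 0 rose, against 32.7% of all genes called, 15.6% higher and 17.1% lower. Calls are at an adjusted p under 0.05 in the quasi-likelihood test of edgeR, adjusted by Benjamini and Hochberg's method over the 14300 genes. The median log2 fold change of the members was -0.64 for BSF against LSF, -0.50 for BSF against DSF and -0.59 for BSF_C against LSF, beside 0.01, -0.00 and 0.01 for all genes. At an unadjusted p under 0.05, 0, 0 and 1 members were higher in these comparisons, and limma-voom and DESeq2's Wald test also called 0 higher. Scaling by library totals alone called 1 member higher in BSF_C against LSF, and turned the split over all genes to 2942 higher and 1737 lower for BSF against LSF, against 1921 and 2269 with trimmed means, and to 3227 and 1868 for BSF_C against LSF, against 2225 and 2445. BSF against LSF shares the BSF libraries with BSF against DSF and the LSF libraries with BSF_C against LSF. It is therefore not separate evidence from either. BSF against DSF and BSF_C against LSF share no library, though all libraries were fitted together. BSF and BSF_C were, however, nearly as alike as libraries of the same group. Chi-square per degree of freedom, where 1 is counting noise alone, was 1.61 to 2.31 between their libraries. It was 1.37 to 2.07 within feeding groups and 6.53 to 12.3 between other feeding groups. Leaving out 1 library left 28 to 33 members lower in BSF against LSF and 22 to 25 lower in BSF against DSF, but changed the calls over all genes more: 4190 genes for BSF against LSF became 2557 without BSF replicate 1 and 2583 without replicate 2, and 1720 for BSF against DSF became 798 to 920 without any 1 of the 4 libraries.

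The values themselves parted by feeding group. In 27 of the 38 members (71.1%), all 5 libraries of BSF_C and BSF lay below all 5 of LSF and DSF, as did 9.24% of all genes tested. Only Myc lay the other way round without overlap, against 8.38% of all genes. In 13 members the order BSF_C and BSF, then LSF and DSF, then con had no overlap at either step, as in 2.57% of all genes: Fos, Fosb, Jun, Egr1, Egr2, Ier2, Ier3, Atf3, Dusp1, Zfp36, Maff, Socs3 and Csrnp1. The 3 con libraries lay above all 10 others in 16 members, against 27.1% of all genes, and below all 10 in 6, Jund, Ier5, Klf4, Gadd45a, Cebpb and Cebpd, against 31% of all genes.

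**Figure D1:**
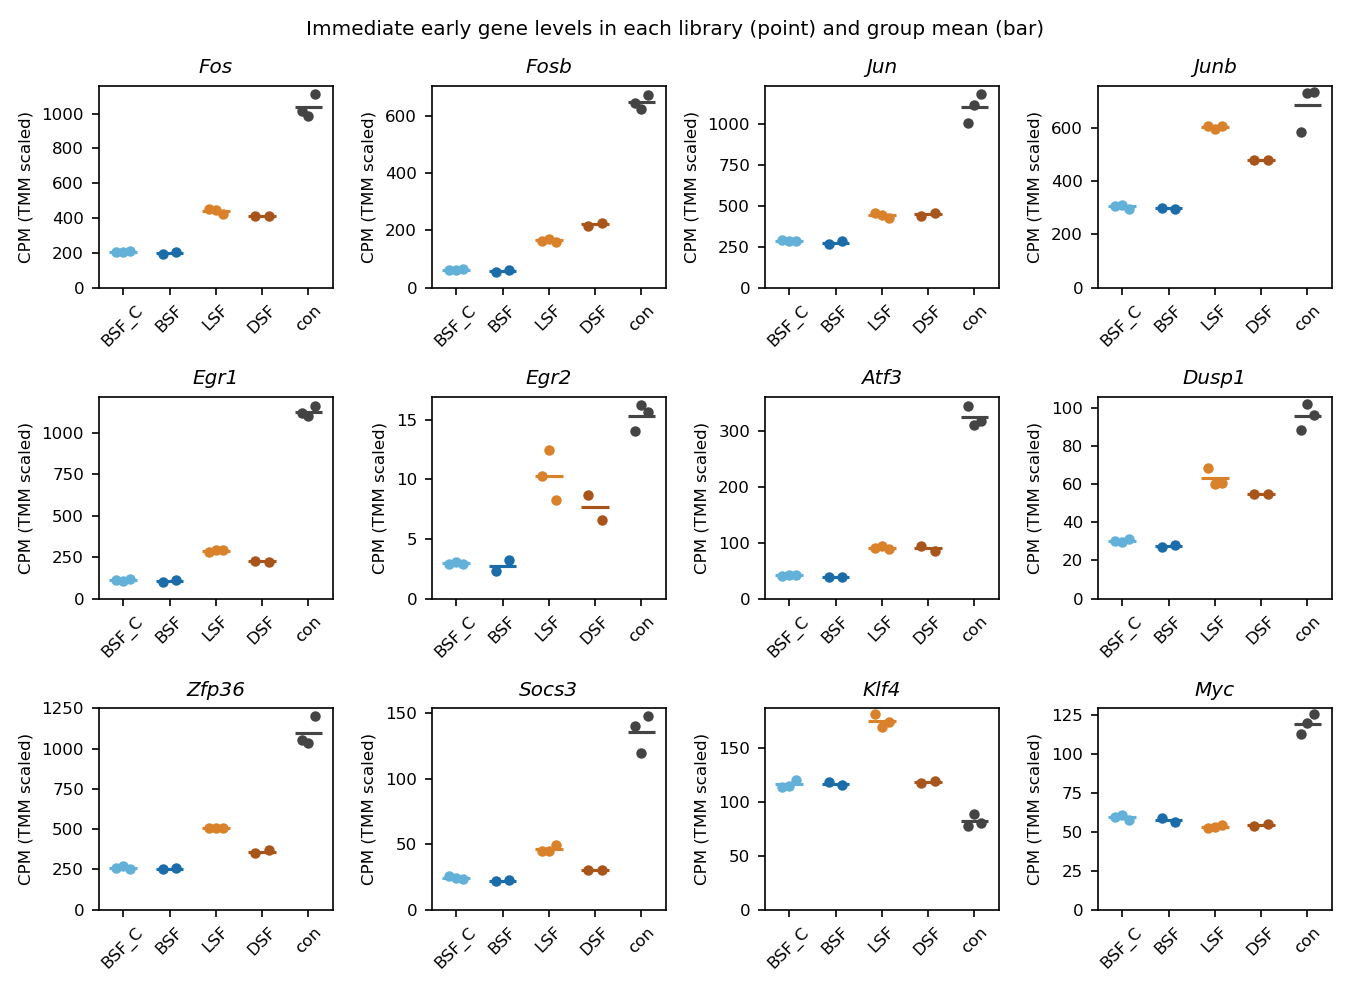
Levels of 12 members in CPM scaled by trimmed means (y axes, from 0), 1 panel a gene, with the 5 groups on the x axes, a point for each library and a bar for the group mean. In the panels of Fos, Fosb, Jun, Egr1, Egr2, Atf3, Dusp1, Zfp36 and Socs3 the libraries of BSF_C and BSF lie lowest, those of LSF and DSF above them and those of con highest, while Klf4 is highest in LSF and Myc is lower in the feeding groups than in con.

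Against con, a larger share of the members than of all genes was called lower in each feeding group, and a smaller share was called higher. Of the 38, 24 fell and 7 rose in BSF_C, 28 fell and 6 rose in BSF, 17 fell and 11 rose in LSF, and 21 fell and 11 rose in DSF. Of all genes, 33.2% were called lower and 39.8% higher in BSF_C (73% either way), 31.9% and 38.3% in BSF (70.2%), 33% and 38.9% in LSF (72%), and 31.1% and 36.6% in DSF (67.7%). The median log2 fold change of the members was -0.74 in BSF_C, -0.98 in BSF, -0.13 in LSF and -0.39 in DSF, beside 0.12, 0.11, 0.10 and 0.10 for all genes. In LSF the members' calls, 28 of 38 (73.7%), thus lay near the share of all genes. These 4 comparisons share the con libraries.

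**Figure D2:**
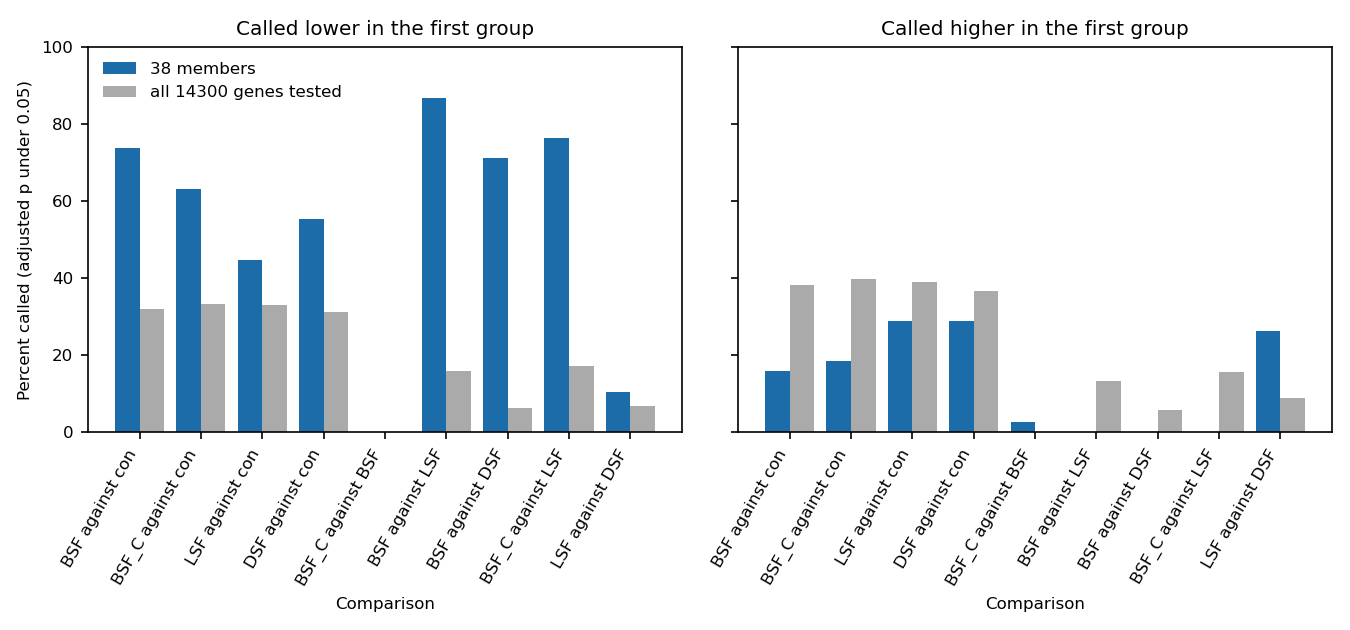
Percent of the 38 members (blue) and of all 14300 genes tested (grey) called lower (left panel) and higher (right panel) in the first group named, for the 9 comparisons on the x axis. Members called lower reach 86.8% for BSF against LSF, where 15.9% of all genes were called lower.

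**Figure D3:**
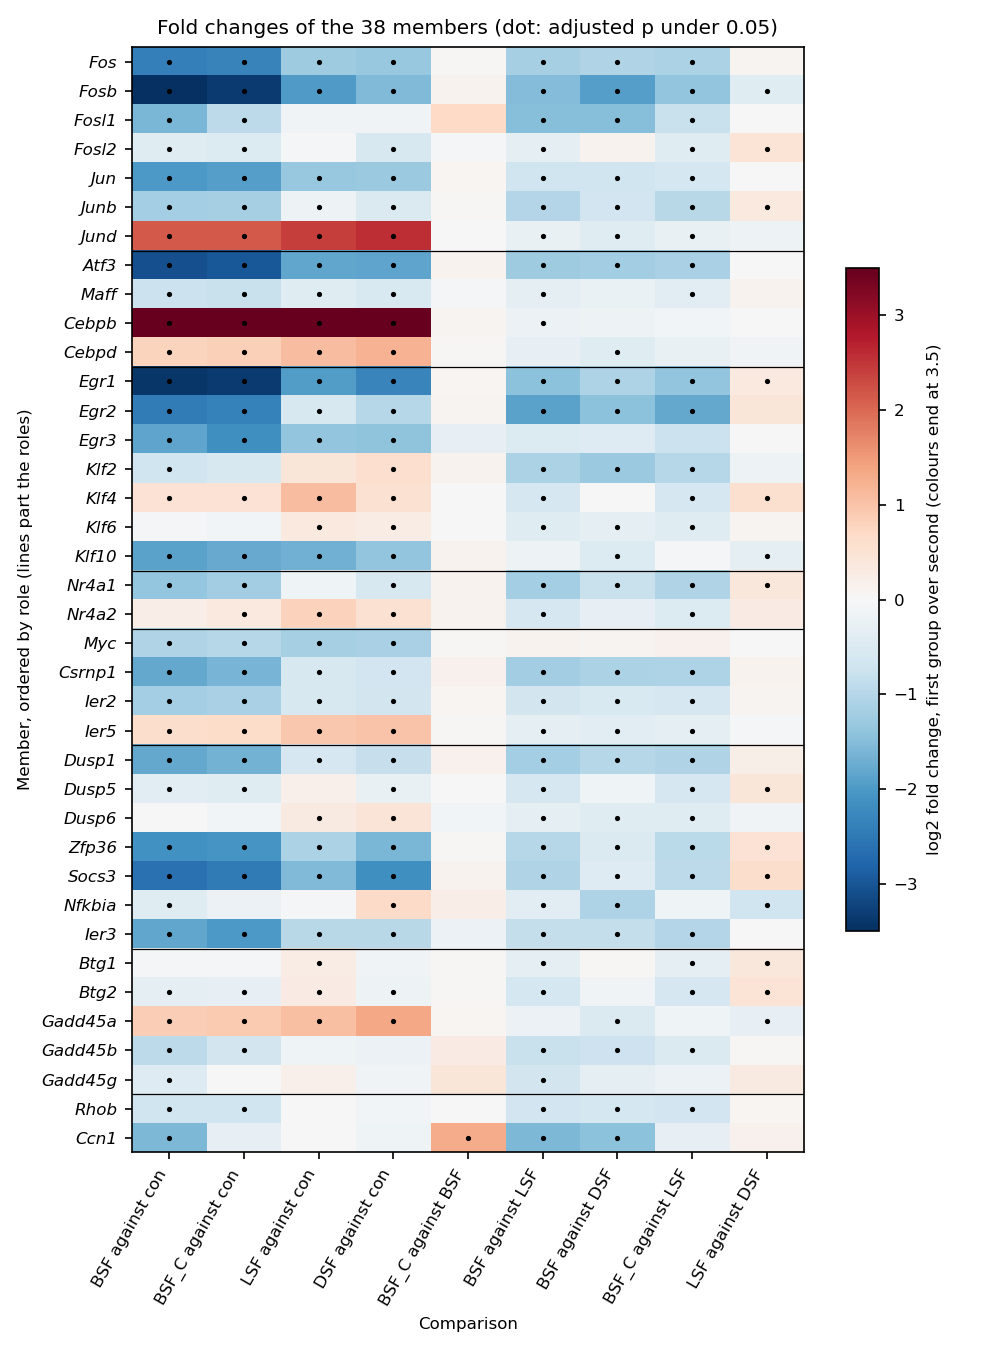
Log2 fold change of each member (rows, ordered by role) in each comparison (columns), first group named over second, with colours ending at 3.5 and a dot for an adjusted p under 0.05. The columns for BSF against LSF, BSF against DSF and BSF_C against LSF hold dots on blue only, and the column for BSF_C against BSF holds 1 dot, on Ccn1.

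The AP-1 subunits, which pair through their leucine zippers and bind the same short site, showed the pattern in nearly every member. All 7 fell in BSF against LSF and in BSF_C against LSF, 6 fell in BSF against DSF, and 6 lay below LSF and DSF without overlap in BSF_C and BSF, where the shares of all genes were 15.9%, 17.1%, 6.26% and 9.24%. Fosb, the partner of the Jun proteins whose shortened form is known from neurons, had 63.3, 62.2 and 64.4 CPM in BSF_C, 54.1 and 61.5 CPM in BSF, 163, 172 and 160.1 CPM in LSF, 214 and 228 CPM in DSF, and 646, 626 and 674 CPM in con. It had 4 levels without overlap: BSF_C with BSF, LSF, DSF and con. Its log2 fold change, with its SE, was -1.51 ± 0.07 for BSF against LSF (adjusted p = 6.49e-24), -1.93 ± 0.08 for BSF against DSF (adjusted p = 1.92e-27), -0.42 ± 0.06 for LSF against DSF (adjusted p = 5.16e-07) and -3.48 ± 0.07 for BSF against con (adjusted p = 5.26e-42). Fos, the founding member of the family, averaged 205 CPM in BSF_C, 199 CPM in BSF, 441 CPM in LSF, 412 CPM in DSF and 1039 CPM in con. Its libraries did not overlap between LSF and DSF, yet that difference was not called. Fos changed on the log2 scale by -1.15 ± 0.06 for BSF against LSF (adjusted p = 2.72e-22), -1.05 ± 0.06 for BSF against DSF (adjusted p = 7.58e-19) and -2.38 ± 0.06 for BSF against con (adjusted p = 1.58e-37). Jun, the main partner of Fos, shares 7.3% of its exon bases with the antisense gene Junos and averaged 288 CPM in BSF_C, 275 CPM in BSF, 443 CPM in LSF, 448 CPM in DSF and 1104 CPM in con. For Jun the log2 fold change was -0.69 ± 0.06 for BSF against LSF (adjusted p = 1.17e-13) and -2.01 ± 0.06 for BSF against con (adjusted p = 5.42e-34). Junb, whose 2301 exon bases include 7.5% shared with Prdx2 on the opposite strand, averaged 306 CPM in BSF_C, 299 CPM in BSF, 605 CPM in LSF, 479 CPM in DSF and 685 CPM in con. Junb had a log2 fold change of -1.02 ± 0.06 for BSF against LSF (adjusted p = 6.2e-19), -0.68 ± 0.07 for BSF against DSF (adjusted p = 6.54e-11), 0.34 ± 0.06 for LSF against DSF (adjusted p = 4.17e-05) and -1.20 ± 0.07 for BSF against con (adjusted p = 7.66e-23).

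Fosl1, the Fra-1 subunit, was the scarcest of the 7 and had 3.93, 2.58 and 3.67 CPM in BSF_C, 1.88 and 2.23 CPM in BSF, 6.64, 5.52 and 5.32 CPM in LSF, 6.24 and 5.41 CPM in DSF, and 7.64, 6.24 and 5.07 CPM in con. The BSF libraries were lowest, and LSF, DSF and con overlapped. Fosl1 changed on the log2 scale by -1.49 ± 0.29 for BSF against LSF (adjusted p = 6.38e-05) and -1.49 ± 0.31 for BSF against DSF (adjusted p = 0.000552). Exons of Ccdc85b on the opposite strand cover 57.2% of Fosl1, so its counts are uncertain. Fosl2, the Fra-2 subunit, averaged 197 CPM in BSF_C, 206 CPM in BSF, 263 CPM in LSF, 189.5 CPM in DSF and 277 CPM in con, and DSF was the group that went with BSF_C and BSF. For Fosl2 the log2 fold change was -0.35 ± 0.06 for BSF against LSF (adjusted p = 1.74e-05) and 0.47 ± 0.06 for LSF against DSF (adjusted p = 6.39e-08). Jund, the subunit known for steady expression in resting cells, had 592, 587 and 555 CPM in BSF_C, 604 and 556 CPM in BSF, 710.0, 693 and 688 CPM in LSF, 795 and 767 CPM in DSF, and 84.9, 178 and 126 CPM in con. It was lowest in con and highest in DSF, and no 2 of these groups apart from BSF_C and BSF overlapped. The antisense gene Gm11175, which the count table does not list, covers 52.6% of the exon bases of Jund, so its counts are uncertain. Jund had a log2 fold change of 2.16 ± 0.10 for BSF against con (adjusted p = 4.07e-26), 2.59 ± 0.10 for DSF against con (adjusted p = 1.09e-29) and -0.43 ± 0.10 for BSF against DSF (adjusted p = 0.00163). Without BSF replicate 2 the adjusted p of Jund in BSF against DSF was 0.0648, with DESeq2's Wald test it was 0.355, and its call in BSF against LSF was lost in each of 3 fits, without BSF replicate 2, LSF replicate 1 or LSF replicate 2, with adjusted p of 0.0544 to 0.239. Both Jund and Cebpb have transcripts with 67.15% GC. Over the 52 tested genes at or above 65% GC, a limit set after the values were seen, the median log2 fold change against con was 1.60 in BSF_C, 1.62 in BSF, 1.35 in LSF and 1.43 in DSF. With trends of GC content and length removed, the log2 fold change of Jund against con was 0.93 in BSF_C, 0.97 in BSF, 1.26 in LSF and 1.38 in DSF.

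Among the other bZIP factors, Atf3 and Maff fell against con in every feeding group, and Cebpb and Cebpd rose. Atf3, a repressor known to be induced by stress, had 41.3, 42.6 and 41.99 CPM in BSF_C, 39.7 and 38.1 CPM in BSF, 90.9, 93.8 and 89.8 CPM in LSF, 94.6 and 85.6 CPM in DSF, and 346, 312 and 319 CPM in con. LSF and DSF overlapped each other and lay between the other groups. Atf3 changed on the log2 scale by -1.24 ± 0.08 for BSF against LSF (adjusted p = 1.98e-18), -1.21 ± 0.09 for BSF against DSF (adjusted p = 3e-16) and -3.07 ± 0.08 for BSF against con (adjusted p = 3.36e-38). Maff, a small Maf protein without an activation domain, averaged 27.8 CPM in BSF_C, 28.2 CPM in BSF, 35.9 CPM in LSF, 33.3 CPM in DSF and 47.9 CPM in con. For Maff the log2 fold change was -0.34 ± 0.11 for BSF against LSF (adjusted p = 0.0128), -0.37 ± 0.10 for BSF_C against LSF (adjusted p = 0.00207) and -0.75 ± 0.11 for BSF against con (adjusted p = 3.89e-08). Without BSF replicate 1 the change of Maff in BSF against LSF was -0.24 with an adjusted p of 0.21, and without LSF replicate 2 its adjusted p was 0.0808. Cebpd, a factor of the acute phase response, averaged 22.4 CPM in BSF_C, 21.9 CPM in BSF, 26.9 CPM in LSF, 29.5 CPM in DSF and 12.6 CPM in con. Cebpd had a log2 fold change of 0.79 ± 0.16 for BSF against con (adjusted p = 1.89e-05) and 1.22 ± 0.15 for DSF against con (adjusted p = 5.53e-10). Its exons share 15% of their bases with Spidr on the opposite strand.

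Cebpb, which drives differentiation and acute phase genes, had the largest fold against con. It had 136, 134 and 129 CPM in BSF_C, 127 and 122 CPM in BSF, 143, 139 and 146 CPM in LSF, 137 and 144 CPM in DSF, and 0.619, 1.46 and 0.921 CPM in con. Its counts were 3, 7 and 4 in con and 940 to 1185 in the 10 other libraries. Cebpb changed on the log2 scale by 7.03 ± 0.15 for BSF_C against con (adjusted p = 2.32e-41), 6.93 ± 0.16 for BSF against con (adjusted p = 9.06e-40), 7.13 ± 0.15 for LSF against con (adjusted p = 5.04e-42) and 7.11 ± 0.16 for DSF against con (adjusted p = 1.51e-40). Cebpb is a single exon at chr2:167688915-167690418 (GRCm38, plus strand), and Tmem189 on the opposite strand covers 312 of its bases (20.7%). The Tmem189 count exceeded the Cebpb count by 28 to 92 in every library, con included, so the 2 counts rose by nearly the same number of reads. Without a stated strand setting, reads of the pair cannot be told apart, and the change is not assigned to Cebpb alone. With trends of GC content and length removed, its log2 fold change against con was 5.76 in BSF_C, 5.70 in BSF, 5.93 in LSF and 5.86 in DSF. Cebpb was also called lower in BSF against LSF, a call that was lost without BSF replicate 1, BSF replicate 2 or LSF replicate 3, with adjusted p of 0.0635 to 0.183.

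**Figure D4:**
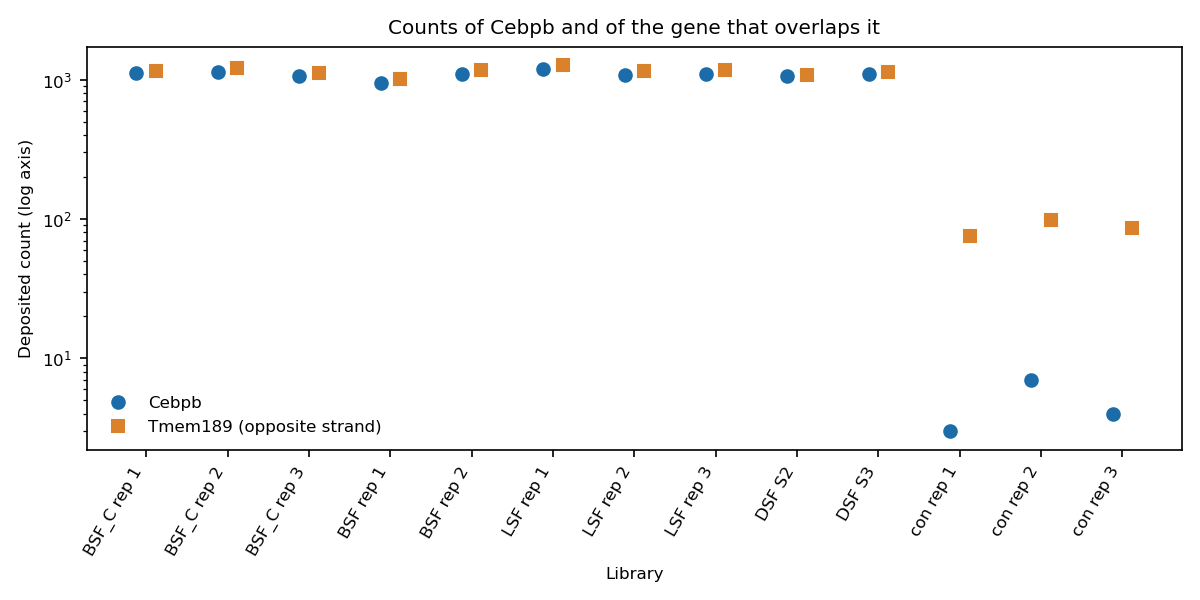
Deposited counts (y axis, log scale) of Cebpb (blue circles) and of Tmem189 on the opposite strand (orange squares) in each of the 13 libraries (x axis). Cebpb stands at 3 to 7 counts in con and 940 to 1185 in the others, and in every library the Tmem189 count lies 28 to 92 above it.

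Of the zinc finger factors, the Egr genes fell against con in every feeding group, while the Klf genes went separate ways. Egr1, the best known target of the ternary complex factors, had 111, 107 and 116 CPM in BSF_C, 99.2 and 113 CPM in BSF, 280.0, 292 and 294 CPM in LSF, 228 and 223 CPM in DSF, and 1121, 1100.4 and 1163 CPM in con. No 2 of the 4 levels, BSF_C with BSF, DSF, LSF and con, overlapped. For Egr1 the log2 fold change was -1.44 ± 0.07 for BSF against LSF (adjusted p = 4.64e-25), -1.09 ± 0.07 for BSF against DSF (adjusted p = 3.82e-18), 0.35 ± 0.06 for LSF against DSF (adjusted p = 9.8e-06) and -3.41 ± 0.07 for BSF against con (adjusted p = 6.61e-43). Egr2, a relative with the same binding site, had 2.95, 3.04 and 2.94 CPM in BSF_C, 2.29 and 3.23 CPM in BSF, 10.3, 12.5 and 8.24 CPM in LSF, 8.72 and 6.597 CPM in DSF, and 14.04, 16.2 and 15.7 CPM in con. LSF and DSF overlapped, and both lay above BSF_C and BSF. Egr2 had a log2 fold change of -1.88 ± 0.24 for BSF against LSF (adjusted p = 1.24e-08), -1.45 ± 0.27 for BSF against DSF (adjusted p = 0.000104) and -2.44 ± 0.24 for BSF against con (adjusted p = 4e-13). Egr3 averaged 1.29 CPM in BSF_C, 1.599 CPM in BSF, 2.19 CPM in LSF, 2.16 CPM in DSF and 5.75 CPM in con, and it fell in BSF against con, but was not called among the feeding groups. Egr3 changed on the log2 scale by -1.85 ± 0.35 for BSF against con (adjusted p = 6.07e-06).

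Klf4, a factor of differentiating gut epithelium and goblet cells, had 114, 115 and 121 CPM in BSF_C, 118 and 116 CPM in BSF, 182, 170.2 and 175 CPM in LSF, 118 and 120.1 CPM in DSF, and 78.05, 89.2 and 80.4 CPM in con. LSF stood above all other libraries and con below them. For Klf4 the log2 fold change was 1.09 ± 0.07 for LSF against con (adjusted p = 1.53e-21), -0.59 ± 0.07 for BSF against LSF (adjusted p = 2.93e-10) and 0.56 ± 0.07 for LSF against DSF (adjusted p = 1.23e-09). Klf10, known as a target of transforming growth factor beta, had 71.7, 63.6 and 56.4 CPM in BSF_C, 58.7 and 59.6 CPM in BSF, 59.4, 70.02 and 73.4 CPM in LSF, 80.01 and 86.3 CPM in DSF, and 219, 209 and 228 CPM in con. Its libraries in LSF overlapped with those of BSF_C and BSF, and con was highest. Klf10 had a log2 fold change of -1.88 ± 0.08 for BSF against con (adjusted p = 6.3e-27), -1.69 ± 0.07 for LSF against con (adjusted p = 5.98e-28), -0.49 ± 0.09 for BSF against DSF (adjusted p = 0.000125) and -0.30 ± 0.08 for LSF against DSF (adjusted p = 0.00767). The adjusted p of Klf10 in LSF against DSF was 0.116 without LSF replicate 1 and 0.165 without the DSF library marked S3. Klf6 and Klf2 averaged 123 CPM in BSF_C, 124 CPM in BSF, 166 CPM in LSF, 156 CPM in DSF and 130.2 CPM in con for Klf6, and 2.93 CPM in BSF_C, 2.68 CPM in BSF, 5.85 CPM in LSF, 6.61 CPM in DSF and 4.34 CPM in con for Klf2. Klf6 changed on the log2 scale by -0.42 ± 0.07 for BSF against LSF (adjusted p = 4.08e-06) and -0.33 ± 0.08 for BSF against DSF (adjusted p = 0.00182). Its call against DSF was lost without BSF replicate 2, with an adjusted p of 0.109, and without the DSF library marked S2, with 0.0526. Klf2, a factor abundant in endothelium and lymphocytes, was low, and its log2 fold change was -1.12 ± 0.27 for BSF against LSF (adjusted p = 0.00111) and -1.30 ± 0.29 for BSF against DSF (adjusted p = 0.001). Endothelial markers summed to 8.43 to 9.79 CPM in BSF_C, 7.80 to 9.69 CPM in BSF, 10.9 to 12.1 CPM in LSF, 11.1 to 12.5 CPM in DSF and 3.72 to 4.61 CPM in con. Of 6 tested, 0 were called in BSF against LSF or BSF against DSF, where 29.3% and 12% of all genes were called. Their part in Klf2 was not tested.

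Nr4a1 and Nr4a2 are orphan receptors that act without a known ligand. Nr4a1 averaged 11.5 CPM in BSF_C, 10.6 CPM in BSF, 23.8 CPM in LSF, 17.95 CPM in DSF and 26.8 CPM in con. Nr4a1 had a log2 fold change of -1.18 ± 0.15 for BSF against LSF (adjusted p = 1.92e-08), -0.77 ± 0.17 for BSF against DSF (adjusted p = 0.00126) and -1.34 ± 0.16 for BSF against con (adjusted p = 1.78e-10). Without BSF replicate 2 its adjusted p in BSF against DSF was 0.0722. Nr4a2 averaged 18.3 CPM in BSF_C, 16.8 CPM in BSF, 25.4 CPM in LSF, 20.8 CPM in DSF and 14.4 CPM in con. Nr4a2 changed on the log2 scale by -0.58 ± 0.14 for BSF against LSF (adjusted p = 0.00119) and 0.81 ± 0.14 for LSF against con (adjusted p = 1.72e-06). Without BSF replicate 1 its adjusted p in BSF against LSF was 0.0659.

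Among the other nuclear regulators, Ier2 and Csrnp1 followed the order of Fos. Ier2, a short nuclear protein, averaged 199 CPM in BSF_C, 190.1 CPM in BSF, 296 CPM in LSF, 276 CPM in DSF and 434 CPM in con. Csrnp1, once named for its induction by Axin in human cells, averaged 10.5 CPM in BSF_C, 9.52 CPM in BSF, 22.1 CPM in LSF, 20.3 CPM in DSF and 32.7 CPM in con. For Csrnp1 the log2 fold change was -1.22 ± 0.15 for BSF against LSF (adjusted p = 7.61e-09), -1.10 ± 0.17 for BSF against DSF (adjusted p = 2.25e-06) and -1.78 ± 0.16 for BSF against con (adjusted p = 6.36e-15). Ier5, a relative of Ier2, was lowest in con and averaged 204 CPM in BSF_C, 199.6 CPM in BSF, 254 CPM in LSF, 262 CPM in DSF and 131 CPM in con. Ier5 had a log2 fold change of -0.35 ± 0.07 for BSF against LSF (adjusted p = 0.000146) and 0.61 ± 0.08 for BSF against con (adjusted p = 6.56e-10). Myc, a driver of growth and of crypt proliferation, stayed outside the pattern. It averaged 59.1 CPM in BSF_C, 57.5 CPM in BSF, 53.1 CPM in LSF, 54.05 CPM in DSF and 119 CPM in con. Myc fell against con in all 4 feeding groups, and 0 of the 5 comparisons among feeding groups called it, although the libraries of BSF_C and BSF lay above those of LSF and DSF. Myc changed on the log2 scale by -1.05 ± 0.08 for BSF against con (adjusted p = 3.57e-17) and -1.16 ± 0.07 for LSF against con (adjusted p = 6.72e-21).

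Of the 7 feedback inhibitors and survival genes, 7 fell in BSF against LSF, where 15.9% of all genes fell, and 6 fell in BSF against DSF, where 6.26% of all genes fell. Zfp36, which binds AU-rich elements and speeds the decay of early messenger RNAs, had 262, 269 and 253 CPM in BSF_C, 252 and 257 CPM in BSF, 508, 507 and 507 CPM in LSF, 352 and 368 CPM in DSF, and 1051, 1034 and 1205 CPM in con. The 3 LSF libraries were nearly equal and lay above DSF. For Zfp36 the log2 fold change was -0.99 ± 0.06 for BSF against LSF (adjusted p = 1.09e-19), -0.50 ± 0.07 for BSF against DSF (adjusted p = 6.19e-08), 0.49 ± 0.06 for LSF against DSF (adjusted p = 2.41e-09) and -2.11 ± 0.06 for BSF against con (adjusted p = 7.08e-35). Socs3, the inhibitor of receptors that signal through Stat3, had 25.4, 24.6 and 23.1 CPM in BSF_C, 21.5 and 22.8 CPM in BSF, 44.5, 44.97 and 49.4 CPM in LSF, 30.2 and 30.6 CPM in DSF, and 141, 119.6 and 148 CPM in con. It had the largest excess of LSF over DSF among the members. Socs3 had a log2 fold change of -1.06 ± 0.11 for BSF against LSF (adjusted p = 1.43e-11), 0.61 ± 0.10 for LSF against DSF (adjusted p = 7.94e-06), -2.61 ± 0.10 for BSF against con (adjusted p = 1.18e-29) and -2.16 ± 0.10 for DSF against con (adjusted p = 1.21e-26). Its fall in BSF against DSF, -0.45, had an adjusted p of 0.0941 without BSF replicate 1, 0.0648 without the DSF library marked S2 and 0.073 without the one marked S3. Nfkbia, the inhibitor that holds NF-kappa B in the cytoplasm, had 29.1, 26.7 and 30.9 CPM in BSF_C, 25.8 and 23.8 CPM in BSF, 33.4, 30.6 and 32.2 CPM in LSF, 55.7 and 48.9 CPM in DSF, and 30.4, 33.9 and 34.8 CPM in con. DSF stood alone above all other libraries. Nfkbia changed on the log2 scale by -0.71 ± 0.10 for LSF against DSF (adjusted p = 1.34e-07), -1.08 ± 0.11 for BSF against DSF (adjusted p = 1.31e-10) and 0.67 ± 0.11 for DSF against con (adjusted p = 2.56e-07).

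Dusp1, the phosphatase of nuclear p38 and Jnk, averaged 30.3 CPM in BSF_C, 27.6 CPM in BSF, 63.01 CPM in LSF, 54.8 CPM in DSF and 95.4 CPM in con. For Dusp1 the log2 fold change was -1.19 ± 0.10 for BSF against LSF (adjusted p = 5.93e-15), -0.99 ± 0.11 for BSF against DSF (adjusted p = 2.12e-10) and -1.79 ± 0.10 for BSF against con (adjusted p = 3.98e-23). Dusp5, which acts on nuclear Erk, averaged 48.6 CPM in BSF_C, 49.3 CPM in BSF, 73.4 CPM in LSF, 54.7 CPM in DSF and 65.5 CPM in con. Dusp5 had a log2 fold change of -0.58 ± 0.09 for BSF against LSF (adjusted p = 1.06e-06) and 0.42 ± 0.09 for LSF against DSF (adjusted p = 0.000295). An antisense gene that the count table does not list covers 22.1% of the exon bases of Dusp5, so its counts too are uncertain. Dusp6, which acts on Erk in the cytoplasm, averaged 47.96 CPM in BSF_C, 51.7 CPM in BSF, 64.4 CPM in LSF, 69.9 CPM in DSF and 51.6 CPM in con. Dusp6 changed on the log2 scale by -0.32 ± 0.09 for BSF against LSF (adjusted p = 0.00342), -0.44 ± 0.09 for BSF against DSF (adjusted p = 0.000609), 0.32 ± 0.08 for LSF against con (adjusted p = 0.00057) and 0.44 ± 0.09 for DSF against con (adjusted p = 3.02e-05). Without BSF replicate 2 both calls against LSF and DSF were lost, with adjusted p of 0.123 and 0.0507. Ier3, a survival gene of the NF-kappa B and p53 responses, averaged 16.5 CPM in BSF_C, 19.1 CPM in BSF, 33.7 CPM in LSF, 33.9 CPM in DSF and 66.4 CPM in con. For Ier3 the log2 fold change was -0.83 ± 0.12 for BSF against LSF (adjusted p = 1.36e-07), -0.84 ± 0.13 for BSF against DSF (adjusted p = 1.86e-06) and -1.81 ± 0.11 for BSF against con (adjusted p = 2.77e-20).

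The growth arrest genes varied in direction. Gadd45a, a p53 target that answers DNA damage, had 52.2, 47.4 and 50.1 CPM in BSF_C, 45.1 and 50.03 CPM in BSF, 56.01, 57.7 and 51.4 CPM in LSF, 69.3 and 65.3 CPM in DSF, and 28.1, 22.04 and 29.5 CPM in con. It was lowest in con and highest in DSF. E230016M11Rik on the opposite strand, a gene the count table does not list, covers 19.1% of its exon bases. Gadd45a had a log2 fold change of 0.85 ± 0.11 for BSF against con (adjusted p = 1.68e-09), 1.35 ± 0.11 for DSF against con (adjusted p = 1.64e-16), -0.50 ± 0.10 for BSF against DSF (adjusted p = 0.000237) and -0.29 ± 0.09 for LSF against DSF (adjusted p = 0.0167). The last of these calls was lost without LSF replicate 3, where its adjusted p was 0.102, without the DSF library marked S2, where it was 0.212, and without that marked S3, where it was 0.0504. Gadd45b averaged 22.02 CPM in BSF_C, 18.1 CPM in BSF, 31.1 CPM in LSF, 29.9 CPM in DSF and 34.4 CPM in con. Gadd45b changed on the log2 scale by -0.77 ± 0.13 for BSF against LSF (adjusted p = 4.13e-06) and -0.72 ± 0.14 for BSF against DSF (adjusted p = 0.00018). Gadd45g averaged 12.3 CPM in BSF_C, 9.101 CPM in BSF, 14.1 CPM in LSF, 11.4 CPM in DSF and 12.4 CPM in con. For Gadd45g the log2 fold change was -0.63 ± 0.18 for BSF against LSF (adjusted p = 0.00529). That call was lost without BSF replicate 2, with an adjusted p of 0.0692, and without LSF replicate 2, with 0.0598. Btg1 and Btg2, brakes on proliferation that recruit the deadenylase, were highest in LSF. Btg2 averaged 121 CPM in BSF_C, 118 CPM in BSF, 181 CPM in LSF, 129 CPM in DSF and 147 CPM in con. Btg2 had a log2 fold change of -0.61 ± 0.07 for BSF against LSF (adjusted p = 1.71e-10) and 0.48 ± 0.07 for LSF against DSF (adjusted p = 1.09e-07). Btg1 averaged 281 CPM in BSF_C, 274 CPM in BSF, 347 CPM in LSF, 264 CPM in DSF and 288 CPM in con. Btg1 changed on the log2 scale by -0.34 ± 0.06 for BSF against LSF (adjusted p = 6.87e-06) and 0.39 ± 0.06 for LSF against DSF (adjusted p = 4.95e-07).

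Rhob, a short-lived small GTPase, averaged 94.8 CPM in BSF_C, 94.2 CPM in BSF, 151 CPM in LSF, 143 CPM in DSF and 154 CPM in con. For Rhob the log2 fold change was -0.68 ± 0.08 for BSF against LSF (adjusted p = 3.63e-10), -0.60 ± 0.08 for BSF against DSF (adjusted p = 2.44e-07) and -0.71 ± 0.08 for BSF against con (adjusted p = 3.15e-11). Ccn1, a matrix protein and a target of the Yap coactivators, varied widely within LSF and DSF and had 22.1, 18.5 and 21.8 CPM in BSF_C, 9.56 and 7.47 CPM in BSF, 15.9, 30.8 and 29.6 CPM in LSF, 31.4 and 14.2 CPM in DSF, and 25.8, 27.7 and 22.1 CPM in con. Both BSF libraries lay below every other library, while 1 LSF and 1 DSF library stood well below the others of their group. Ccn1 had a log2 fold change of -1.58 ± 0.22 for BSF against LSF (adjusted p = 6.43e-08), -1.44 ± 0.24 for BSF against DSF (adjusted p = 9.96e-06) and -1.58 ± 0.23 for BSF against con (adjusted p = 3.19e-08). Without the DSF library marked S2, its log2 fold change in BSF against DSF was -0.76 with an adjusted p of 0.0932.

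BSF_C against BSF asked what the unexplained addition to the breakfast skipping label changed, and it called 1 of 38 members. Ccn1 was higher in BSF_C, and 0 members were lower, against 0.133% of all genes called, 0.105% higher and 0.028% lower (19 genes in all). Ccn1 changed on the log2 scale by 1.30 ± 0.22 for BSF_C against BSF (adjusted p = 0.000395). Without BSF replicate 2 its log2 fold change was 1.12 with an adjusted p of 0.249, and neither limma-voom (0.0844) nor DESeq2's Wald test (0.634) called it. At an unadjusted p under 0.05, 4 members were higher and 0 lower in BSF_C. Ccn2 and Thbs1, which are Yap targets like Ccn1 and stand in the list of other early genes, averaged 27.8 and 17.7 CPM in BSF_C and 1.69 and 2.58 CPM in BSF. Fibroblast and matrix markers summed to 20.6 to 39.4 CPM in BSF_C and 14.1 to 14.3 CPM in BSF, and 2 of 8 were called higher in BSF_C. The LSF and DSF libraries that were low in Ccn1, LSF replicate 1 and the DSF library marked S3, had 4.35 and 5.94 CPM of the collagen gene Col1a1, against 11.6 to 19.5 CPM in the other 3. Col1a2 was also lower there, at 3.86 and 2.77 CPM against 4.68 to 11.4 CPM. Col3a1 was not, at 6.88 and 5.54 CPM against 4.29 to 6.64 CPM. BSF_C replicate 3 had 5.88 CPM of Col1a1 with Ccn1 at 21.8 CPM. In con, Col1a1 was at 0 to 0.230 CPM with Ccn1 at 22.1 to 27.7 CPM. The part of fibroblasts in Ccn1 was not tested.

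LSF against DSF called 14 members, 10 higher and 4 lower in LSF, against 15.9% of all genes, 8.97% higher and 6.91% lower. The 10 were Fosl2, Junb, Egr1, Klf4, Dusp5, Zfp36, Btg1, Btg2, Nr4a1 and Socs3, and the 4 were Fosb, Klf10, Gadd45a and Nfkbia. The fold changes were small, from -0.71 for Nfkbia to 0.61 for Socs3 on the log2 scale, and 0 of the 14 reached a log2 fold change of 1. The call of Nr4a1 was lost in each of 4 fits that left out an LSF or DSF library other than LSF replicate 1, with adjusted p of 0.0774 to 0.219. Over all genes the 2271 calls became 1288 without the DSF library marked S2 and 1430 without that marked S3. Scaling by library totals alone turned the split over all genes to 1013 higher and 1651 lower, where the scaling by trimmed means gave 1283 and 988, while the members' split was 9 and 4.

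Levels of different members can be set side by side only per length, here as group mean CPM per kilobase of exon in GENCODE M21. In BSF the highest were Jund at 348, Junb at 129.8, Ier2 at 125, Jun at 86.1, Fos at 84.5 and Cebpb at 82.6. In LSF they were Jund at 418, Junb at 263, Ier2 at 195, Fos at 188, Zfp36 at 146 and Jun at 139. In con they were Fos at 442, Jun at 346, Zfp36 at 316, Junb at 298, Ier2 at 285 and Egr1 at 252. The order therefore changed between con and the feeding groups, with the caveat on Jund and Cebpb given above. The lowest was Egr3 in each feeding group, at 0.292 in BSF_C, 0.363 in BSF, 0.497 in LSF and 0.491 in DSF, and Cebpb in con, at 0.664.

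Genes that sit above the members in the pathway were called in both directions. Of 35 genes of the MAP kinase cascade and of the factors that bind early promoters, 8 fell and 5 rose in BSF against LSF, 3 fell and 2 rose in BSF against DSF, and 17 fell and 12 rose in BSF against con. Of all genes, 15.9% were called lower and 13.4% higher in BSF against LSF, 6.26% and 5.77% in BSF against DSF, and 31.9% and 38.3% in BSF against con, so the genes called higher, and those called lower in BSF against DSF, lay near the share of all genes. Their median log2 fold change was -0.04, -0.06 and -0.21 in these comparisons, beside 0.01, -0.00 and 0.11 for all genes. Erbb3, a receptor of the epidermal growth factor family, averaged 367 CPM in BSF, 565 CPM in LSF and 746 CPM in con. Of 7 ligands of these receptors tested, 2 fell in BSF against LSF and 0 rose. Hbegf, a membrane-bound ligand and itself an early gene, averaged 29.9 CPM in BSF_C, 28.4 CPM in BSF, 60.6 CPM in LSF, 60.1 CPM in DSF and 177 CPM in con, the same order of means as Fos. Its log2 fold change was -1.09 ± 0.09 (SE) in BSF against LSF, with an adjusted p of 2.08e-14. Areg, a ligand made by epithelium and leukocytes, averaged 9.42 CPM in BSF_C, 9.08 CPM in BSF, 22.9 CPM in LSF and 18.5 CPM in DSF.

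Of 14 other feedback inhibitors of this signalling, 7 fell and 1 rose in BSF against LSF, and 3 fell and 0 rose in BSF against DSF, against 15.9% of all genes lower and 13.4% higher in BSF against LSF, and 6.26% and 5.77% in BSF against DSF. Errfi1, an inhibitor of the receptor itself, averaged 81.0 CPM in BSF and 128 CPM in LSF. Of 37 other early response genes tested, 21 fell and 2 rose in BSF against LSF, 14 fell and 2 rose in BSF against DSF, and 19 fell and 8 rose in BSF against con, where 31.9% of all genes fell and 38.3% rose. Their median log2 fold changes were -0.32, -0.20 and -0.44. Ppp1r15a, a phosphatase subunit of the stress response, averaged 19.6 CPM in BSF_C, 18.9 CPM in BSF, 35.8 CPM in LSF, 36.7 CPM in DSF and 121 CPM in con. Sgk1, a kinase induced by glucocorticoids, averaged 59.9 CPM in BSF_C, 52.4 CPM in BSF, 137 CPM in LSF, 33.9 CPM in DSF and 14.1 CPM in con, and so did not follow the members. The clock gene Bhlhe40 was higher in BSF than in LSF, at 268 CPM in BSF and 181 CPM in LSF.

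Stress chaperones, which are also known to respond to dissociation, were called in both directions. Of 17 listed genes, 7 rose and 3 fell in BSF against LSF, 6 rose and 1 fell in BSF against DSF, and 10 rose and 5 fell in BSF against con. Of all genes, 13.4% rose and 15.9% fell in BSF against LSF, 5.77% and 6.26% in BSF against DSF, and 38.3% and 31.9% in BSF against con, and the chaperones' median log2 fold changes were -0.02, 0.02 and 0.19. Their summed level was 8248 to 8448 CPM in BSF_C, 8117 to 8273 CPM in BSF, 7519.9 to 7595 CPM in LSF, 7114 to 7314 CPM in DSF and 5699.6 to 6251 CPM in con, so it was highest in BSF_C and BSF and lowest in con. Hsp90aa1, the inducible cytosolic form, averaged 337 CPM in BSF_C, 348 CPM in BSF, 215 CPM in LSF, 267.5 CPM in DSF and 68.7 CPM in con. The inducible Hspa1a and Hspa1b were not called in BSF against LSF, at 5.48 and 24.9 CPM in BSF and 6.92 and 28.9 CPM in LSF. The part of tissue handling in the members' levels was not tested.

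Markers of other cell types also differed between the feeding groups. Leukocyte markers summed to 194 to 224 CPM in BSF_C, 182 to 202 CPM in BSF, 293 to 302 CPM in LSF and 302 to 306 CPM in DSF, heart muscle markers to 152 to 182, 163 to 170.3, 412 to 476 and 444 to 450.0 CPM in the same groups, and smooth muscle markers to 23.1 to 33.9, 21.5 to 29.0, 66.4 to 68.2 and 54.8 to 61.9 CPM. The largest part of the smooth muscle sum was Des, at 13.1 to 17.7 CPM in BSF_C and BSF and 44.3 to 51.1 CPM in LSF and DSF. Of 3 smooth muscle genes tested, 3 were called lower in BSF against LSF and 1 in BSF against DSF, against 15.9% and 6.26% of all genes. Of 14 leukocyte genes tested, 8 and 7 were called lower in these comparisons, and 0 higher in either. The largest parts of the leukocyte sum were Gzmb, Gzma and Cd8a. Csf1r had 18.4 and 19.1 CPM in BSF and 15.9 to 20.4 CPM in LSF. Itgam had 6.57 and 8.21 CPM in BSF and 5.05 to 6.94 CPM in LSF. Enteric neuron and glia markers ran the other way, at 40.0 to 45.8 CPM in BSF_C, 46.7 to 51.8 CPM in BSF, 28.1 to 32.6 CPM in LSF and 25.1 to 31.4 CPM in DSF. Ptprc, which encodes CD45, was at 13.3 to 17.9 CPM in BSF_C, 12.8 and 14.8 CPM in BSF, 17.6 to 20.1 CPM in LSF, 16.5 and 19.1 CPM in DSF and 0 to 0.416 CPM in con. Their part in the lower member levels of BSF_C and BSF was not tested.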

How the data were processed

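Raw counts per gene were deposited by the authors as whole numbers with no normalization, in 1 table of 13 libraries. Per the submitters' processing notes, the tools were STAR 2.7.2e, cutadapt 2.9, DESeq2 1.32.0 and FastQC 0.11.8, with builds GRCm38 and mm10. Annotation, strand setting and the treatment of reads on several genes are not given in the sources used here. Counts of genes that overlap on opposite strands are therefore uncertain. Groups followed the labels, which number the libraries as biological replicates without naming animals or pools. Between libraries of the same feeding group, chi-square per degree of freedom was 1.37 to 2.07, where 1 is counting noise alone. Within con it was 2.13 to 3.93. The p-values measure the spread between these libraries, and whether that covers the spread between mice is not known. The DSF columns are marked S2 and S3 where the labels number the replicates 1 and 2, so they were given no replicate number.

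Genes were filtered with filterByExpr (14300 genes, 99.91% of counts), scaled by trimmed means (TMM) and tested with the quasi-likelihood test of edgeR 4.0.16 under R 4.3.3, two-sided. The 13 libraries were fitted together on group alone, which left 8 residual degrees of freedom. The test also shares its estimate of the spread across genes, so the p-values rest on more than these 8. They were adjusted over all genes tested by the Benjamini-Hochberg method, with a threshold of 0.05. The SE of a log2 fold change is its size over the square root of F, which is not the standard error of the coefficient. The common biological coefficient of variation was 4.87%. Values per library are given for the members that, in any comparison, were among the 3 called with the largest rise or the 3 with the largest fall and had a mean of 5 CPM or more in the higher of the groups, and from each list up to 2 called genes a comparison with the smallest p. Genes named beyond this rule, Hspa1a, Hspa1b, Col1a1 and Ptprc among them, were picked with their values in view. The members, the lists, the comparisons and the order of groups tested for overlap were chosen with earlier results of these data known.

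Alternatives were limma-voom (limma 3.58.1), DESeq2 1.42.0 with its Wald test, its size factors in edgeR, library totals alone, no filter, only the groups compared, con left out, a block for the replicate number, thinned counts, a minimum log2 fold change of 1, and each library left out. Added after seeing the data were a lowess correction (span 0.3) for GC content and exon length, and members that overlap another counted gene left out. Gene models were those of GENCODE M21 on GRCm38, which 21689 of 21868 symbols (99.2%) matched, and promoters those of RefSeq on GRCm38.p6.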

Additional observations from a re-analysis of the deposited data

How the results depend on the processing

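No called fold change of a member reversed under any setting, and of 229, 26 lost the call when at least 1 of the libraries was left out. Over the other settings without a minimum fold, calls were lost 45 times. A call lost under several of these settings was counted there once for each. With a log2 fold change of at least 1 asked, the members called were 19 in BSF_C against con, 21 in BSF against con, 15 in LSF against con, 15 in DSF against con, 13 in BSF against LSF, 10 in BSF against DSF, 9 in BSF_C against LSF and 0 in LSF against DSF. For BSF_C against BSF, DESeq2's Wald test and limma-voom called 0 members (3 at an unadjusted p under 0.05 in each), and leaving out 1 library gave 0 to 1. Over all genes the 19 calls of that comparison became 2 with the Wald test, 4 with limma-voom, 30 without the filter, 32 with only the 2 groups, 29 with con left out and 12 without BSF_C replicate 2, and thinning split them 12 higher and 6 lower where the fit as reported gave 15 and 4. The Wald test called 1111 genes in BSF against DSF, where edgeR called 1720. The members called in the other comparisons stayed within 1.5 times the count reported under all settings without a minimum fold, and 25 to 29 members lay below LSF and DSF without overlap in BSF_C and BSF. Library totals alone raised the median of all genes against con by 0.10 to 0.18 on the log2 scale, and removing the trends of GC content and length lowered it by 0.10 to 0.12. Libraries with the same replicate number did not deviate together (r from -0.07 to 0.03 over 15 pairs), and with the number as a replicate block 31 members were called in BSF_C against con, 32 in BSF against con, 28 in LSF against con, 1 in BSF_C against BSF, 33 in BSF against LSF and 29 in BSF_C against LSF. No block could be fitted for DSF, whose columns carry no matching number. The cause of these shifts was not tested. Where counts are low, as for Cebpb in con (3 to 7 counts), depth limits the precision of a fold change.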
